A study of Sus scrofa with 9 samples.

Results

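The miRNAs of the imprinted DLK1-DIO3 locus were examined in small RNA libraries of pig (Sus scrofa) gametes and early embryos. Members were the listed names that, without their species prefix, carried 1 of 39 miRNA numbers of this locus, with all arms and length variants (isomiRs). They made up 28 of the 1313 names in the table, and came from 17 of the 39 numbers. Only 5 of the 28 had the pig prefix (ssc), and 23 had the prefix of another species, such as dog (cfa), cow (bta) or goat (chi).

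The DLK1-DIO3 locus is imprinted, which means that the allele in use depends on the parent it came from. The paternal copy is known for expressing the protein-coding genes DLK1, RTL1 and DIO3, and the maternal copy for expressing the non-coding RNA MEG3 and a large group of miRNAs. These miRNAs lie in clusters, the first around miR-127 and miR-136 and the second running from miR-379 to miR-410, and are best known from brain, muscle and placenta.

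The study compared 3 groups of 3 libraries each, all without treatment, to find RNAs that sperm could bring into the egg. MII oocytes, mature eggs arrested at the second meiotic metaphase, came from follicles of postpubertal gilts, were matured in vitro and were stripped of cumulus cells. PN embryos were in vitro fertilized eggs in which the pronuclei were still separate. The sequenced sperm was fresh, mature and purified, from Large White boars by the study's methods, which do not say there how it was purified. Semen for the in vitro fertilization came from Landrace boars and was purified over a PureSperm density gradient. Oocytes came from Long White pigs. The sperm libraries and the sires of the PN embryos thus differed in breed. RNA was taken from large pools of oocytes and of embryos, and nothing in the labels says that the libraries of a group came from separate pools, so the p-values below measure only the spread between these libraries, which may be technical.

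Library totals were between 289183 and 381674 reads for the oocytes, between 422630 and 771001 for the embryos and between 1640492 and 2455102 for the sperm libraries, with no overlap, so that depth and group cannot be told apart. The smallest value above 0 among the members was 5 reads once reads divided between names were summed. Over the 906 names of the table with a row of their own, 258 of 4606 values above 0 equalled 5 and 93 were lower. A listed 0 was therefore read as up to about 5 reads, although lower values were sometimes listed. Levels are given in CPM, the reads of a name divided by the library total and scaled to 1000000. A level of 5 reads corresponded to 13.1 to 17.3 CPM at the oocytes' depth, 6.49 to 11.8 CPM at that of the embryos and 2.04 to 3.05 CPM at that of sperm. Such floors are 5 reads over the library total and make no allowance for counting error or other spread. In these bulk samples, fewer cells of a type and less RNA per cell cannot be told apart.

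The locus was placed with RefSeq's annotation of Sscrofa11.1, the build that the submitters' processing notes name. DLK1 was at chr7:121565844-121577493 and MEG3 at chr7:121656253-121660495. The hairpin of miR-127 was at chr7:121709636-121709715 and that of miR-136 at chr7:121711328-121711409, both within the span of RTL1 at chr7:121706955-121720472. The annotation held 7 miRNA entries of the locus, 4 on chromosome 7 over 13573 bp and 3, with that of miR-381 among them, on unplaced sequence. Only 3 of the 17 listed numbers (miR-127, miR-136 and miR-381) had an entry. MIR493, MIR432, MIR376A and MIR376C had entries, but no name with these numbers was listed in any library.

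The members were scarce. Their summed level was 105, 86.9 and 69.2 CPM in the MII oocyte libraries, from 40, 26 and 20 reads, with a mean of 87.0 ± 17.8 CPM (SD, n = 3). It was 0 in every PN embryo library. It was 144.5, 176 and 183 CPM in sperm, from 237, 305 and 450 reads, with a mean of 168 ± 20.6 CPM (SD, n = 3). All 3 sperm libraries lay above all MII oocyte libraries, and no member was listed in a PN embryo, although the PN embryo libraries were deeper than those of the oocytes. The floors differ, however. At their sperm level, 3 read sets (miR-380, miR-381-3p and miR-411-5p) would have reached 5 reads in every oocyte library. These 3 summed to 82.9, 96.3 and 103 CPM in sperm, within the range of the oocyte sums. The highest value of any member in any library was 99 reads.

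Members were listed mostly in sperm. In at least 1 sperm library 25 of the 28 were listed (89.3%), beside 61.4% of all names. In MII oocytes 6 were listed (21.4%), beside 45.5% of all names. In PN embryos 0 of 28 were listed, beside 66.9% of all names. All 3 sperm libraries and no other library listed 11 members (39.3%), beside 214 of all names (16.3%). At 0 in all PN embryo libraries were all 28 members and 434 of the 1313 names (33.1%). These shares move with depth as well as with level.

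**Figure D1:**
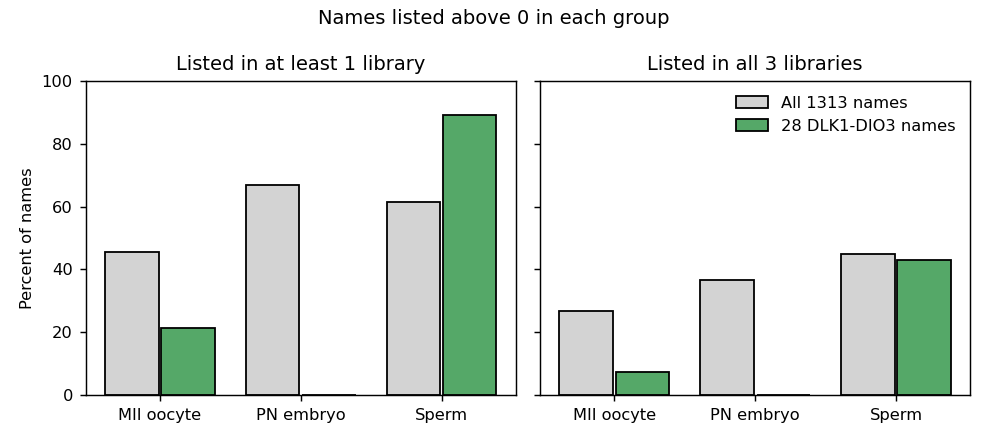
Percent of names listed above 0 (vertical axis) in MII oocytes, PN embryos and sperm, for all 1313 names (grey) and the 28 DLK1-DIO3 names (green), in at least 1 library (left) and in all 3 libraries (right). In PN embryos the members stand at 0, and in at least 1 sperm library at 89.3%.

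Several names described the same reads. Where rows of 1 miRNA number held identical values, the reads had been divided among the names, and summing them gave 22 read sets, 6 of which joined 2 names each. After summing, all 54 values above 0 were whole numbers within 0.01. The rows of miR-411-3p and miR-485-3p, which carry different miRNA numbers, were also identical, with 0, 6 and 5 reads in the 3 sperm libraries. The names are those of the table, and no mature sequence was compared.

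**Figure D2:**
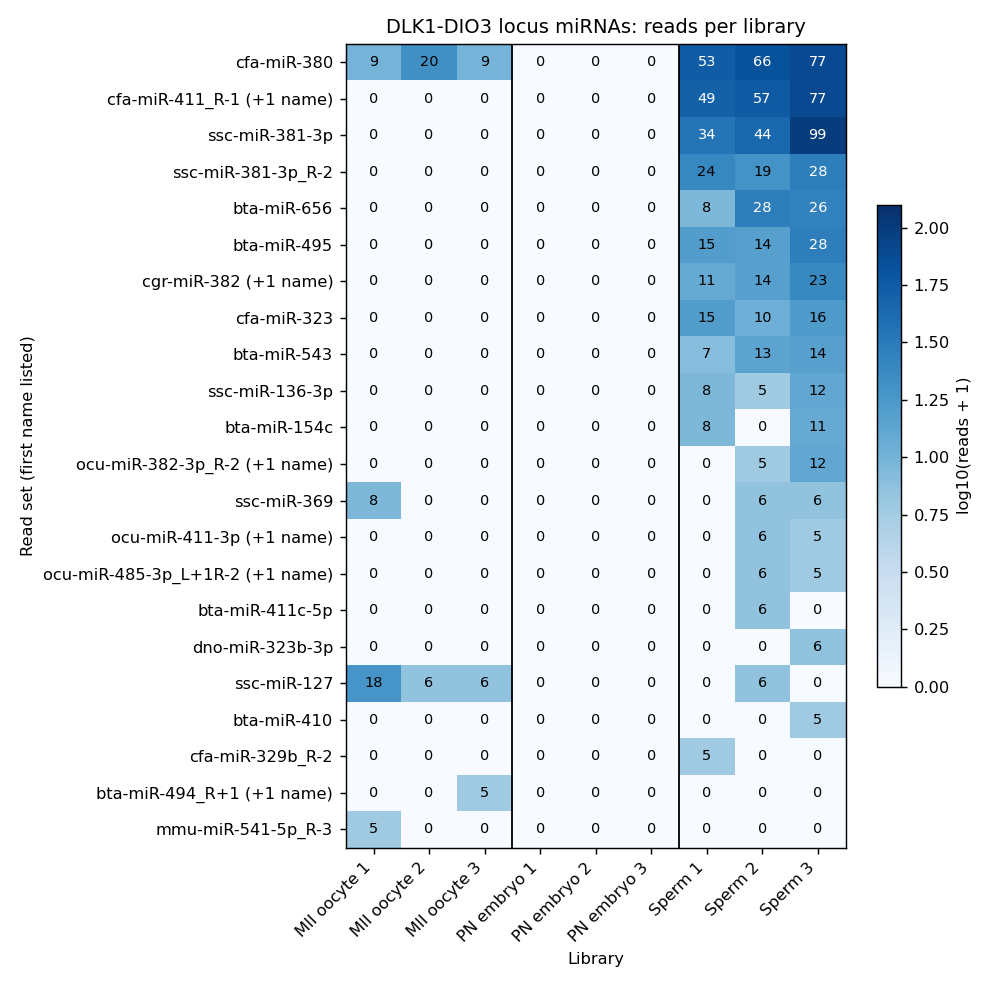
Reads of each of the 22 read sets (rows, by the first name listed) in each of the 9 libraries (columns), coloured by log10(reads + 1). The 3 PN embryo columns hold only 0, MII oocytes hold few values above 0, and most reads lie in the sperm columns.

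The first cluster was listed with 2 of its 8 numbers, miR-127 and miR-136. The hairpins of both lie within RTL1, and in mouse these miRNAs are known to direct the cleavage of the Rtl1 transcript from the opposite strand. ssc-miR-127 had 18, 6 and 6 reads in MII oocytes, 0 in each PN embryo library, and 0, 6 and 0 reads in sperm. Its level was 47.2, 20.1 and 20.7 CPM in MII oocytes (29.3 ± 15.5, SD, n = 3) and 0, 3.46 and 0 CPM in sperm. Every oocyte library lay above every library of the other groups, and the first oocyte library held most of the reads. ssc-miR-136-3p, chosen for mention after its values were seen, went the other way, with 8, 5 and 12 reads in sperm and 0 in all other libraries. Its mean in sperm, 4.22 ± 1.15 CPM (SD, n = 3), was under the level of 5 reads in the oocyte and embryo libraries. At that mean it would have given 1.22 to 1.61 reads in the oocyte libraries and 1.78 to 3.25 in those of the embryos.

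The second cluster was listed with 15 of its 30 numbers and 26 names, and miR-370, which lies between the clusters, was not listed. Its summed level was 57.6 ± 9.21 CPM in MII oocytes and 163 ± 20.3 CPM in sperm (SD, n = 3). cfa-miR-380 was the only member listed in all libraries of both gametes. The 5p arm of miR-380 is known as a repressor of p53, but the name cfa-miR-380 gives no arm. cfa-miR-380 had 9, 20 and 9 reads in MII oocytes, 0 in each PN embryo library and 53, 66 and 77 reads in sperm. Its level was 23.6, 66.8 and 31.1 CPM in MII oocytes (40.5 ± 23.1, SD, n = 3) and 32.3, 38.1 and 31.4 CPM in sperm (33.9 ± 3.63, SD, n = 3). The gamete groups overlapped, and both lay above the level of 5 reads in PN embryos.

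**Figure D3:**
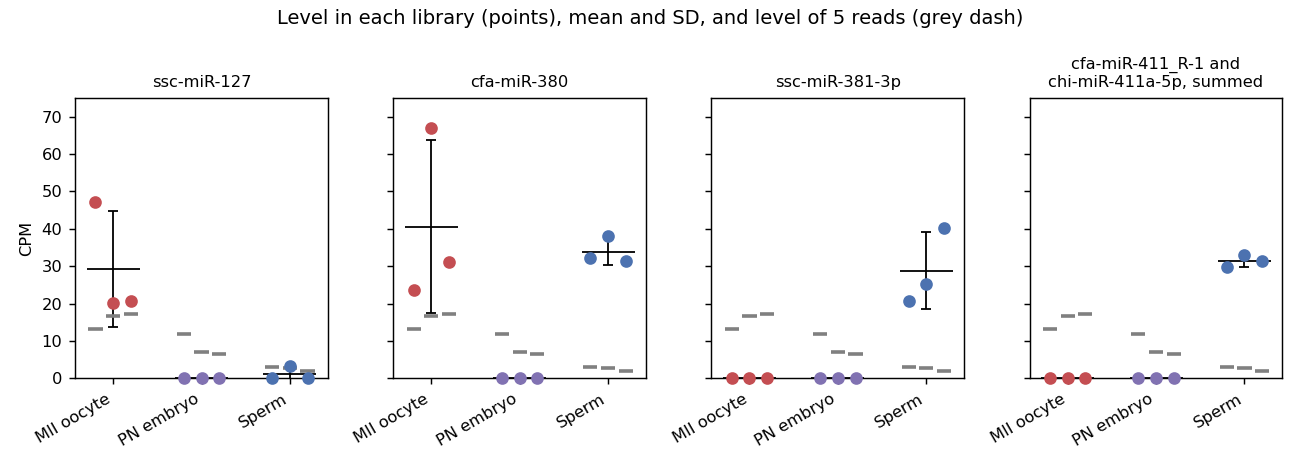
Level in CPM (vertical axis) of ssc-miR-127, cfa-miR-380, ssc-miR-381-3p and the summed miR-411-5p names in each library of the 3 groups (points), with the mean and SD (black) and the level of 5 reads in that library (grey dash). miR-127 is above the dash in all oocyte libraries, miR-380 in both gametes, and miR-381-3p and miR-411-5p in sperm alone.

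miR-381 was listed in sperm under a pair of names. ssc-miR-381-3p had 34, 44 and 99 reads in the sperm libraries, or 20.7, 25.4 and 40.3 CPM (28.8 ± 10.2, SD, n = 3). ssc-miR-381-3p_R-2 had 24, 19 and 28 reads there, or 14.6, 10.96 and 11.4 CPM (12.3 ± 2.00, SD, n = 3). Neither was listed in an oocyte or embryo library. The ratio of the first name to the second was 1.42, 2.32 and 3.54 in the 3 sperm libraries, so the longer-named isomiR was the rarer in each.

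miR-411 was at a like level in sperm. The reads of its 5p arm were divided evenly between cfa-miR-411_R-1 and chi-miR-411a-5p, with 15.7 CPM each on average. Summed, they came to 49, 57 and 77 reads, or 29.9, 32.9 and 31.4 CPM (31.4 ± 1.51, SD, n = 3). This was the most even of the abundant read sets across sperm libraries. The 3p arm, under 2 names, came to 0, 6 and 5 reads, below the 5p arm in every sperm library. The arms of miR-382, given here because both were listed, lay in the same order, with 11, 14 and 23 reads for the set that holds chi-miR-382-5p and 0, 5 and 12 for the set that holds chi-miR-382-3p.

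bta-miR-656, from the far end of the cluster, had 8, 28 and 26 reads in sperm, or 4.88, 16.2 and 10.6 CPM (10.5 ± 5.64, SD, n = 3), and 0 elsewhere. The first sperm library was well below the others. Of the members mentioned after their values were seen, miR-495, miR-323 (cfa-miR-323) and miR-543 were listed in every sperm library at means of 9.54 ± 1.70, 7.14 ± 1.77 and 5.82 ± 1.62 CPM (SD, n = 3), and in no other library. By miRNA number, miR-381 (41.1 ± 9.18 CPM), miR-411 (34.4 ± 5.04 CPM) and miR-380 (33.9 ± 3.63 CPM) did not differ beyond their spread, and held 24.5%, 20.5% and 20.2% of the locus's level in sperm. After them came miR-382 (10.6 ± 3.79 CPM) and miR-656. Of the 28 names, 14 stayed under 10 reads in every library and 7 were listed in 1 library alone.

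**Figure D4:**
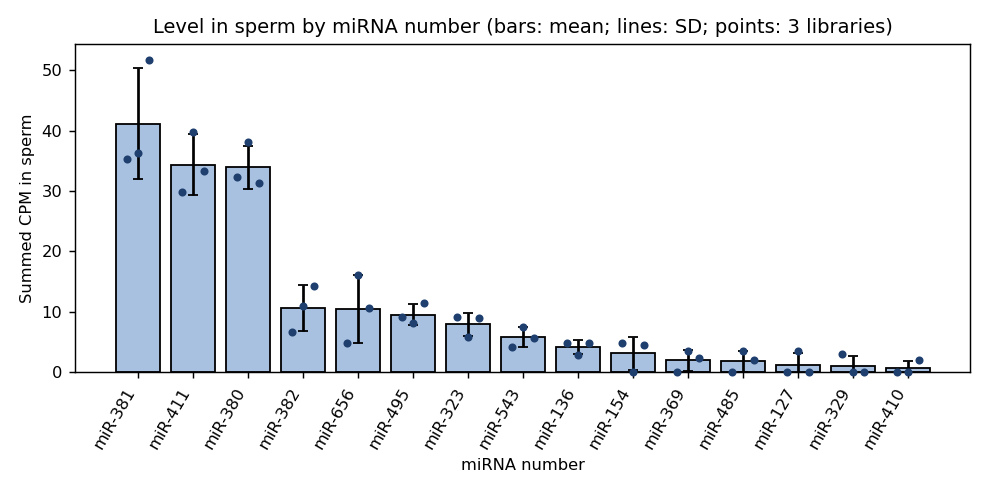
Summed level in sperm (vertical axis, CPM) of each of the 15 miRNA numbers listed there, as the mean of 3 libraries (bars) with the SD (lines) and each library (points). miR-381, miR-411 and miR-380 stand together at 33.9 CPM or more, and the next number, miR-382, is at 10.6 CPM.

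PN embryos were compared with MII oocytes to see what changed at fertilization. miR-127 and miR-380 were lower in PN embryos, in edgeR's quasi-likelihood test over all names with Benjamini-Hochberg adjustment (q). The MII oocyte means of miR-127 and miR-380 were 3.45-fold and 4.76-fold the mean level of 5 reads in PN embryos. Such ratios of means are no bound for single libraries. The fitted log2 fold change, which is no bound for a group listed at 0, was -7.82 ± 1.98 (SE) with q = 0.0217 for miR-127 and -8.25 ± 1.04 with q = 7.73e-04 for miR-380. At their oocyte level, miR-127 would have given 12.4, 20.4 and 22.6 reads in the PN embryo libraries, and miR-380 17.1, 28.2 and 31.2.

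A call needed a q below 0.05 and a log2 fold change of 1 or more in either direction. The test covered 587 names, 5 members among them, and miR-127 passed its filter on low counts only through the oocytes. Lower in PN embryos were 1.70% of the names tested. With no filter and divided reads summed, 2 of the 22 member read sets (9.09%) were called lower, beside 1.15% of all 1307 tested. The call of miR-380 held in the 23 alternatives in which it was tested, with q from 4.43e-07 to 0.00749. That of miR-127 did not hold without MII oocyte library 1 (q = 0.0804), PN embryo library 1 (q = 0.0508) or PN embryo library 2 (q = 0.0709). It was also lost where each 0 in the lower group was taken as 4 reads (q = 0.112). A fit that paired same-numbered libraries (replicate block) lost it as well (q = 0.108).

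Few names behaved in this way. Of 352 names listed in all 3 MII oocyte libraries, 6 were at 0 in all PN embryo libraries, and miR-127 and miR-380 were among them. The others were ssc-miR-1_R+1 and ssc-miR-133a-3p_R+1, known from muscle, ssc-miR-124a_R-2, known from neurons, and rno-miR-1843b-3p. The 6 had oocyte means of 15.7 to 117 CPM, and the share among names at a like level was not tested. Of the 597 names listed in at least 1 oocyte library, 75 were at 0 in all PN embryo libraries. Over the muscle list (miR-1, miR-133 and miR-206) the summed level was 96.8 to 246 CPM in the oocytes, with miR-206 at 0 there. It was 0 in every PN embryo library and 12.6 to 17.1 CPM in sperm. The sum in sperm was mostly ssc-miR-206 (mean of 13.6 CPM), with miR-133 at 0. The neural list (miR-124 and miR-9) lay at 522 to 901 CPM in the oocytes and 278 to 351 CPM in the embryos, where miR-124 was at 0, and at 9193 to 9501 CPM in sperm. The summed markers of follicle cells overlapped, with 851 to 1360 CPM before and 1074 to 1172 CPM after fertilization, and lay at 703 to 772 CPM in sperm. Before and after fertilization the sum was mostly miR-202, with ssc-miR-202-5p at means of 745 and 655 CPM. The means of ssc-miR-202-5p and ssc-miR-143-3p_R+1 were lower after fertilization, and those of the other follicle names were higher. cfa-miR-383 was highest in sperm (686 CPM), so the sum is no measure of follicle cells alone. The part of other cells in the result for miR-127 and miR-380 was not tested.

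The comparison of sperm with MII oocytes asked which members take a larger share of the reads in sperm. Levels here are shares of a library and not amounts per cell. ssc-miR-381-3p and the miR-411-5p names were higher in sperm. The sperm means of miR-381-3p and of the summed miR-411-5p reads were 1.84-fold and 2.00-fold the mean level of 5 reads in MII oocytes. The fitted log2 fold change was 7.85 ± 1.30 with q = 0.00158 for miR-381-3p and 6.95 ± 1.33 with q = 0.00305 for each miR-411-5p name. miR-127 was lower in sperm, with a log2 fold change of -4.55 ± 1.22 and q = 0.0076. Its sperm reads all lay in library 2, without which the value was -7.60 (q = 0.00316). These names had passed the filter only through the group in which they were high. Over all names tested, 42.2% were called higher and 40.7% lower in sperm.

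miR-380 differed between sperm and MII oocytes by less than its spread, with a log2 fold change of -0.18 (95% interval -1.16 to 0.80, q = 0.712). Its sign depended on the setting, and 1 alternative, which took every 0 as 4 reads and recomputed the scaling, called it higher in sperm (1.63, q = 2.80e-04). With no filter and divided reads summed, 8 of the 22 member read sets (36.4%) were higher in sperm, beside 29.5% of all names, and 1 (4.55%) was lower, beside 20.7%. Those higher were both miR-381 names and the sets of miR-411-5p, miR-382-5p, miR-323, miR-495, miR-543 and miR-656. The share of members higher in sperm was thus near that of all names. At the sperm level and the oocytes' depth, only 3 of the 10 sets listed in every sperm library would have reached 5 reads in every oocyte library, namely miR-380, miR-381-3p and miR-411-5p.

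Sperm was last compared with PN embryos. Both miR-381-3p and miR-380 were higher in sperm, as were the summed miR-411-5p reads. Their sperm means were 3.39-fold, 3.99-fold and 3.69-fold the mean level of 5 reads in PN embryos. The fitted log2 fold change was 7.85 ± 1.05 with q = 5.26e-04 for miR-381-3p, 8.07 ± 0.99 with q = 8.15e-05 for miR-380 and 6.95 ± 1.07 with q = 0.00101 for each miR-411-5p name. For a group listed at 0 such a value is no bound. The names of miR-381-3p and miR-411-5p had passed the filter only through sperm, where they were high. miR-127 was not called (3.27 ± 2.53, q = 0.245), and its value was 0 without sperm library 2. Over all names tested 38.8% were called higher in sperm. With no filter and divided reads summed, 10 of 22 member read sets (45.5%) were called, beside 29.6% of all names, the 8 sets above with miR-380 and miR-136-3p. At the sperm level, 4 of the 10 sets listed in every sperm library would have reached 5 reads in every PN embryo library and 8 of 10 in at least 1. The comparisons share libraries with one another and are not independent.

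Male germ cell markers (miR-34b, miR-34c and miR-449) summed to 151499 to 153743 CPM in sperm and 2036 to 2455 CPM in the other groups. The oocyte and early embryo markers (miR-371, miR-372 and miR-302) summed to 0 in sperm and 1089 to 1286 CPM in the others. This second sum rested almost wholly on ssc-miR-371-5p, with a mean of 1183 CPM before fertilization and 1137 CPM after it. miR-372 was at 0 in every group. miR-302 was listed in PN embryos alone, at means of 20.3 CPM (hsa-miR-302b-3p) and 3.36 CPM (cja-miR-302d-3p). Markers of blood cells were at 166 to 314 CPM in the oocytes, 837 to 875 CPM in the embryos and 268 to 380 CPM in sperm libraries. miRNAs of other imprinted loci were listed with 3 of 5 numbers, and of these miR-335 and miR-296 were present in PN embryos. ssc-miR-335_R-1 had means of 1419, 1857 and 1718 CPM in oocytes, embryos and sperm, cja-miR-335-3p_R+1 of 358, 270 and 3365 CPM, and ssc-miR-296-3p of 113, 132 and 23.2 CPM. Their summed level was 4833 to 5295 CPM in sperm and 1456 to 2364 CPM in the other libraries. Of miR-483 only 5 reads in 1 oocyte library and 6 in 1 sperm library were listed.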

How the data were processed

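Small RNA was sequenced from 3 libraries each of MII oocytes, PN embryos and sperm. The authors ligated adapters, reverse transcribed, amplified by PCR and size-selected on a gel. Per the file headers the deposited table gave raw reads for each name, and since some values were fractions they were taken as estimated counts, not normalized. The aligner and miRNA caller were not given in the sources used here. Groups came from the sample titles. The table had 1420 rows, and rows of 105 repeated names, which were identical, were summed. Counts were rounded and tested with edgeR 4.0.16 in R 4.3.3 (quasi-likelihood test, all 9 libraries in 1 fit, TMM, filterByExpr with a minimum count of 10, Benjamini-Hochberg over all names). The script was tested on simulated data. Standard errors were derived from each F statistic. Alternatives included DESeq2 1.42.0, other filters, equal depth and leaving out each library. Members named were those with a group mean of at least 10 CPM and listed in all 3 libraries of that group, others being said to be chosen later. The members and lists were chosen with earlier results of these data known.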

Additional observations from a re-analysis of the deposited data

How the results depend on the processing

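Members called numbered 2 for PN embryos against MII oocytes, 4 for sperm against MII oocytes and 4 against PN embryos. Of all names tested, 12.9%, 83.0% and 86.2% were called. With the miR-411-5p reads summed, members were 2, 3 and 3. In that order, leaving out 1 library gave 1 to 2, 2 to 4 and 2 to 4 (2 without PN embryo library 2 or 3 or any sperm library, where the miR-411-5p names no longer passed the filter), and reads thinned to equal depth gave 1, 0 and 1. With no filter the sperm comparisons gave 11 and 12 (49.8% and 57.2% of all names), or 9 and 10 with divided reads summed. At least 10 counts in 3 libraries gave 1 for the first comparison and 7 for the third, a q under 0.01 gave 1 for the first, and the fit of only the groups compared gave 0 for the first because no member was tested. How a listed 0 was read was tried in 3 ways, all with no filter and divided reads summed, added after seeing the data, the later ones after the results of the earlier. Taking every 0 as 4 reads gave 2, 9 and 9 with TMM recomputed, and 2, 15 and 11 with the TMM factors of the listed counts, where 82.3% of all names were called in sperm against MII oocytes, 13 of the 15 were lower in sperm and all names had a median log2 difference of -2.24, since names at 0 in both groups then differ by depth alone. Taking as 4 reads only the 0s of the lower group gave 1, 3 and 4.

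The replicate block gave 1 for PN embryos against MII oocytes, where miR-127 lost its call, and 1 for sperm against MII oocytes. There miR-127 (q = 0.054) and the miR-411-5p names (q = 0.0571 each) lost theirs. Same-numbered libraries did not deviate together (correlations of -0.207 to 0.024 over 541 names), but 3 libraries per group cannot exclude pairing. Over 12 named fold changes and 241 alternatives, 221 kept direction and call, 1 came to 0, 8 lost the call and 11 changed sign. The sign of miR-380 in sperm against MII oocytes (-0.18) changed to 0.02 with DESeq2 size factors (0.02434), the DESeq2 Wald test (0.01818), no filter (0.01728) and divided reads summed with no filter (0.01726), to 1.63 with every 0 as 4 reads and TMM recomputed, and ran from -0.24 to 0.51 without 1 library, with 0.51 without MII oocyte library 2, 0.07 without sperm library 1 and 0.01 without PN embryo library 3 (0.012). miR-127 in sperm against PN embryos changed from 3.27 to -0.075, -1.23 and -2.34 (q = 0.908, 0.0365 and 0.0435) in the 3 readings of 0, and to 0 without sperm library 2. The summed level fell from 87.0 to 36.3 CPM in MII oocytes and from 168 to 48.5 CPM in sperm with the pig prefix alone, and to 144.15 CPM in sperm with identical rows counted once. The cause of these changes was otherwise not tested. Depth limits most members, since only 3 read sets would reach 5 reads in every oocyte library at their sperm level.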
